A study of Mus musculus with 32 samples.

Results

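The cells described here were the neuronal cells of the hindbrain at E10.5 and E11.5, chosen as the cells that the study placed in its neuronal group and named as hindbrain cells of either stage. They numbered 110 of the 128 cells deposited for the hindbrain at these stages, of 384 neuronal cells and 1916 cells in the whole series. The others were 7 hematopoietic cells, 1 mesodermal cell and 10 cells in no group, 6 of which had under 2000 genes. C57BL/6J mouse embryos were dissected, no group carried a mutation or received a treatment, and single cells from the trypsin-digested organ were picked by mouth pipette and sequenced with a modified STRT protocol (a modified Smart-seq2 in the labels) that tags cells and molecules (unique molecular identifiers, UMIs). Each stage was 1 library of 64 cells from 2 embryos, so that stage and library cannot be told apart, and the embryo was taken as the replicate. The members came to 30 and 28 cells in E10.5 embryos 1 and 2 and to 27 and 25 cells in E11.5 embryos 1 and 2. In each of E10.5 embryo 2 and E11.5 embryo 1, a pair of cell names held identical values and was counted once, which left 108 cells. Hindbrain neuronal cells at E9.5 (75 cells) and forebrain neuronal cells at E10.5 and E11.5 (96 cells) served for comparison.

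The hindbrain is the part of the neural tube that forms the cerebellum, pons and medulla. Dividing progenitors line its ventricle, kept in that state by Notch signals and their targets such as Hes1 and Hes5, and by Id proteins, which block the proneural basic helix-loop-helix factors. Cells that switch on proneural factors leave the cycle, move outwards and become neurons, whose transmitter depends on the dorsoventral position of the progenitor and on the transcription factors the young neuron then expresses. Along the other axis, Hox genes mark the segments behind the first rhombomere, the En and Fgf8 family genes mark the isthmus with the adjoining midbrain and first rhombomere, and Otx2 marks the midbrain and forebrain.

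Median depth was 243448, 288831, 246830 and 126961 UMIs per cell in the 4 embryos, in the order given above, and a median of 6999, 6352, 5218 and 5204 genes was detected. The deposited values, called TPM by the authors, were UMIs per 1000000 of the cell, and levels below are on the log2(TPM/10 + 1) scale, on which a gene at 1 or more was counted as expressed. Of the neural markers, Tubb3, the neuronal beta tubulin, was expressed in 108 of 108 cells, though also in blood cells of these libraries at a lower level, Stmn2 in 108, Sox2, a progenitor factor, in 55 and Neurod4, a factor of newborn neurons, in 24. Both libraries were labelled male. However, E10.5 embryo 2 had Xist, the RNA of the inactive X, at 73.5 TPM and Y-linked genes at 4.23 TPM, whereas the other 3 embryos had Xist at 0.217 to 1.17 TPM and Y-linked genes at 99.4 to 164 TPM. The forebrain cells of E10.5 embryo 2 likewise had 133 and 4.66 TPM, so this embryo went against its label in both organs. Counts of stage and organ calls and the stage differences in the shares of neuron-range, glutamate-marked and GABA-marked cells are given with and without it. The estimates for single genes include it.

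Transcripts of other cells were present at low level. The 7 hematopoietic cells of these hindbrain libraries (median 396708 UMIs) carried Tubb3 at a mean of 3.65 and Fabp7 at 3.96, each in 7 of 7 cells, and Hes5 in 5 of 7. A level below about 4 of such abundant genes was therefore within what was read in cells that should lack them. Summed globin and other red cell transcripts in the members were 1147 and 1245 TPM at E10.5 and 2942 and 3707 TPM at E11.5, against 241899 TPM in the hematopoietic cells. Of the defining crest-glia genes Sox10, Foxd3 and Erbb3, no UMI was read in any member. The 7 genes of the mesenchymal list summed to at most 15.9 TPM in an embryo. The macrophage list summed to 9.17 and 10.9 TPM at E10.5 and to 25.5 and 36.8 TPM at E11.5. The endothelial list went the other way, with 13.1 and 14.6 TPM and then 0.545 and 6.62 TPM.

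The regional markers were not those of the whole hindbrain. En1 was expressed in 72 cells and En2 in 56 of 108, Fgf17, an isthmic growth factor, in 32 and Fgf8 in 15. By embryo, En1 was found in 28, 18, 17 and 9 cells and En2 in 21, 13, 11 and 11. Of the 14 Hox genes of the rhombomere list, 12 had no UMI in any member, Hoxb2 had 1 UMI, and Hoxa2 had 17 UMIs and was expressed in 1 cell, of E11.5 embryo 1. A count of 0 in 108 cells allows up to 2.78% of cells with a UMI of the gene, which does not limit the cells that expressed it below detection. Otx2 was expressed in 42 cells, 5, 18, 7 and 12 in the 4 embryos. It stood together with an isthmic gene in 30 cells and without one in 12, and 56 cells had an isthmic gene without Otx2. In the E9.5 hindbrain cells Otx2 was at means of 4.80 and 4.63, in 43 of 43 and 31 of 32 cells, above every embryo described here. The cells thus carried the genes of the isthmus and the tissue on both of its sides, and they are called hindbrain cells below after their label. Gbx2, which opposes Otx2 behind the isthmus, was found in 10 progenitor-range cells (6, 2, 0 and 2), 1 of which also had Otx2.

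**Figure D1:**
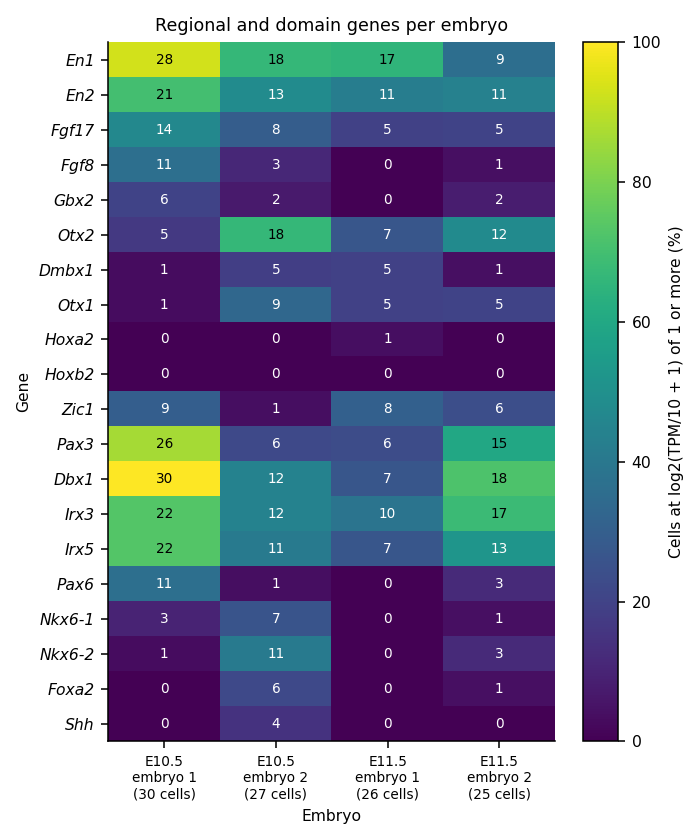
Cells expressing regional genes (upper rows) and dorsoventral domain genes (lower rows) in each embryo. Colour is the percentage of the embryo's cells at log2(TPM/10 + 1) of 1 or more and the printed number is the count of cells. En1 was found in 28 of 30 cells of E10.5 embryo 1 and in 9 of 25 of E11.5 embryo 2, Hoxa2 in 1 cell, and Foxa2 in 6 cells of E10.5 embryo 2 against 1 in all other embryos.

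The 4 embryos differed in their dorsoventral genes. Dbx1, a factor of intermediate progenitors, was expressed in 30 of 30, 12 of 27, 7 of 26 and 18 of 25 cells. Pax3, a factor of dorsal progenitors, followed a like order (26, 6, 6 and 15 cells), as did Irx3 (22, 12, 10 and 17). Hence E10.5 embryo 1 and E11.5 embryo 2 were rich in Dbx1, Pax3 and Irx3, with both stages on each side. Ventral genes came mostly from E10.5 embryo 2, which held 6 of the 7 cells with Foxa2, a floor plate factor, 11 of 15 with Nkx6-2, 6 of 7 with Nkx2-9 and 4 of 4 with Shh, the ventral signal itself. Of the 47 progenitor-range cells (cells in which progenitor genes exceeded neuron genes), 18 expressed any of the 10 ventral genes, and 12 of these 18 were of that embryo. Olig2, which marks motor neuron progenitors, had 1 UMI in all members and Mnx1, which marks motor neurons, had none. Lmx1a, a roof plate and rhombic lip factor, was found in 5 and 2 cells at E11.5 and in 0 and 0 at E10.5. Ptf1a, which drives GABAergic fate in the cerebellar and dorsal hindbrain anlage, was found in 2 and 2 cells at E11.5 and in none at E10.5, and Atoh1, the rhombic lip factor of glutamatergic neurons, in 1, 1, 3 and 3 cells. For Atoh1 the stage difference over all cells was 0.45 ± 0.11 (SE; limma adjusted p = 0.13) and did not pass the test, nor did Ptf1a (adjusted p = 0.26) or Lmx1a (adjusted p = 0.27).

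Each cell was placed by the mean of 10 neuron genes against the mean of 10 progenitor genes, and called neuron-range where the former was higher. This gave 61 neuron-range and 47 progenitor-range cells, of which 7 lay within 0.5 of the cut. Since these genes placed the cells, their levels are a description. Neuron-range cells had Stmn2, which acts on growth cone microtubules, at a mean of 7.40 against 3.36 in progenitor-range cells, Dcx at 4.45 against 1.12 and Ina, a neuronal intermediate filament, at 4.20 against 0.73. Progenitor-range cells had Fabp7, a fatty acid binding protein of radial glia, at 7.48 against 4.95, Id3 at 5.68 against 2.55, Hes5 at 4.18 against 2.0 and Sox2 at 2.50 against 1.20. The neuron-range cells of E10.5 embryo 1 stood apart from those of the other embryos. They expressed Hes5 in 20 of 20 cells, Hes1 in 18 and Sox2 in 13 of 20, while in E11.5 embryo 1 only 2 of 18 neuron-range cells had Sox2. The source of these transcripts was not tested.

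**Figure D2:**
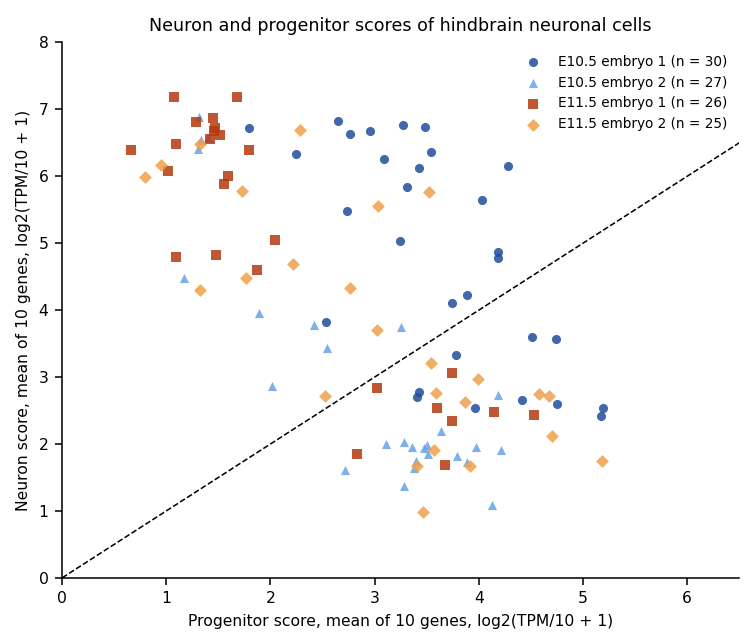
Neuron score against progenitor score of each of the 108 cells, both as the mean of 10 genes on log2(TPM/10 + 1), with colour and symbol by embryo. The dashed line marks equal scores. Cells above it (61) are neuron-range and cells below it (47) progenitor-range, and the neuron-range cells of E10.5 embryo 1 lie further to the right than those of the other embryos.

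The share of neuron-range cells did not separate the stages. It was 66.7% (20 of 30; Wilson 95% interval 48.8 to 80.8%) and 37.0% (10 of 27; 21.5 to 55.8%) at E10.5, and 69.2% (18 of 26) and 52.0% (13 of 25) at E11.5. The 2 embryos of E10.5 thus lay on both sides of E11.5 embryo 2, with a stage difference of 8.76 percentage points (exact permutation test, two-sided, p = 0.667, where 2 against 2 embryos allow no p under 0.333). Without E10.5 embryo 2 the difference turned to -6.05 points, and after thinning each cell to 50000 UMIs, which left out 6 cells, it was 7.50 points.

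Glutamate was the leading transmitter marker. Of 61 neuron-range cells, 32 (52.5%; Wilson 40.2 to 64.5%) expressed Slc17a6, the vesicular glutamate transporter VGLUT2, and none expressed Slc17a7 or Slc17a8. A GABA marker, that is Gad1 or Gad2, which make GABA, or Slc32a1, which loads it into vesicles, was found in 14 (23.0%; 14.2 to 34.9%). Among progenitor-range cells the shares were 5 of 47 and 3 of 47, and among the hematopoietic cells 1 of 7 and 0 of 7. After thinning to 50000 UMIs, 30 and 14 of the 56 neuron-range cells that remained carried them. In all, 26 cells had a glutamate marker only, 8 a GABA marker only, 6 both and 21 neither. The cells with neither had a median of 185288 UMIs, against 253312 for glutamate only, and their scores lay nearer the cut (median neuron minus progenitor score of 2.52 against 5.03).

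By embryo, the glutamate share of neuron-range cells was 60%, 30.0%, 61.1% and 46.2%, and that of GABA was 30.0%, 0%, 11.1% and 46.2%. Both ranges overlapped between the stages. The 0 of 10 cells with a GABA marker at 1 or more in E10.5 embryo 2 allows a share of up to 30.0% with such a reading (3 counts of 10), which does not limit expression below detection. The stage difference was 8.63 points for glutamate and 13.6 points for GABA (exact permutation p = 0.667 for each), and 11.1 and 11.3 points with thinned cells. Leaving out E10.5 embryo 2 turned both (-6.37 and -1.37 points), and leaving out E11.5 embryo 2 turned that of GABA (-3.89 points). At the level of the genes, Slc17a6 had means of 2.15, 1.06, 2.68 and 1.66 and Gad2 of 1.02, 0.10, 0.67 and 1.30 in the neuron-range cells of the 4 embryos, and neither passed the test (limma adjusted p = 0.61 and 0.53).

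The neurons with glutamate and with GABA markers carried different sets of transcription factors. Pou4f1 (Brn3a) was found in 17 of 26 cells with glutamate only and 0 of 8 with GABA only, and Tlx3, a selector of glutamatergic over GABAergic fate in the dorsal hindbrain and spinal cord, in 15 and 1. Isl2 was found in 15 and 2, Tfap2a in 15 and 1, the GDNF receptor gene Ret in 14 and 2, and Onecut3 in 11 and 0. Prrxl1, a factor of sensory relay and sensory neurons, was confined to 4 glutamate-only cells among the 61. On the other side, Lhx5 was found in 7 of 8 GABA-only cells against 1 of 26, Pax2 in 5 against 0, Pax8 in 6 against 2 and Bhlhe22 in 5 against 4. All 11 neuron-range cells with Gad2 had Lhx5. Lhx1 and Uncx were less split, in 7 and 8 of the 8 GABA-only cells and in 8 and 10 of the 26 glutamate-only cells. These counts pool cells of 4 embryos and are a description. E10.5 embryo 2 had no GABA-only cell. Within the other 3 embryos Lhx5 was found in 3 of 3, 2 of 2 and 2 of 3 GABA-only cells, and in the 4 embryos it was found in 1 of 9, 0 of 3, 0 of 11 and 0 of 3 glutamate-only cells. Pou4f1 was found in 5 of 9, 3 of 3, 7 of 11 and 2 of 3 glutamate-only cells. Other factors were not split in E11.5 embryo 1, where Isl2, Tfap2a and Ret were found in 5, 6 and 4 of 11 glutamate-only cells and each in 1 of 2 GABA-only cells.

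**Figure D3:**
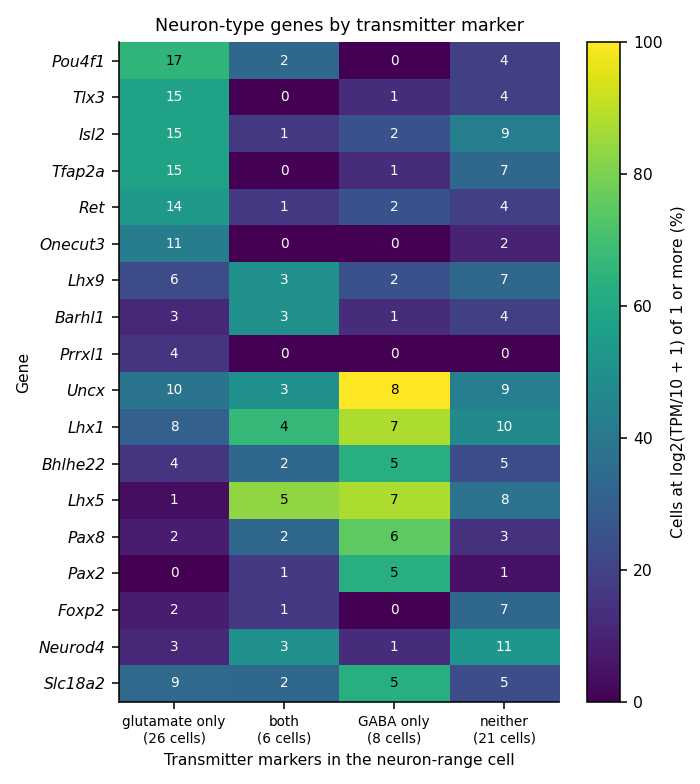
Neuron-range cells expressing each neuron-type gene (rows), by the transmitter markers of the cell (columns). Colour is the percentage of the column's cells at log2(TPM/10 + 1) of 1 or more and the printed number is the count of cells. Pou4f1, Tlx3 and Onecut3 stood in the glutamate-only column (17, 15 and 11 of 26 cells), and Lhx5, Pax8 and Pax2 in the GABA-only column (7, 6 and 5 of 8 cells).

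The factors of the glutamate cells came in combinations. Of 20 neuron-range cells with Tlx3, 14 had Pou4f1 and 15 had Slc17a6, and all 4 cells with Prrxl1 had Tlx3. Pou4f1 stood with Isl2 in 14 cells and with Ret in 13. Pou4f1, Isl1 and Ret are also known from cranial sensory neurons. A further set, not confined to the glutamate cells, carried Lhx9 (18 cells), Lhx2 (20) and Barhl1 (11), LIM and Bar homeobox factors of Atoh1-derived neurons. Here 10 of the 11 cells with Barhl1 and 14 of the 20 with Lhx2 had Lhx9. Lhx9, Lhx2 and Barhl1 were found in 6, 9 and 3 of 26 glutamate-only cells and in 2, 2 and 1 of 8 GABA-only cells. Of the 21 cells with neither marker, 7, 6 and 4 had them. Slc17a6 was found in 54.5% of neuron-range cells with Barhl1 and in 52% of those without. The 6 cells with both transmitter markers had Lhx5 in 5 and Lhx9 in 3.

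Among the markers of other transmitters, Slc18a2, the vesicular monoamine transporter, was found in 21 of 61 neuron-range cells (9, 5, 3 and 4) and in 0 progenitor-range cells. Th, the first enzyme of catecholamine synthesis, was found in 9, of which 7 were of E10.5 embryo 1, and 4 of the 9 had Slc18a2. Dbh, which makes noradrenaline, was expressed in 1 cell. For serotonin, Fev had 3 UMIs and Tph2 1 UMI in all members and Slc6a4 none. Of the 3 acetylcholine genes, the choline transporter Slc5a7 was expressed in 3 cells and the vesicular transporter Slc18a3 in 2, all of E10.5. Chat, the enzyme that makes acetylcholine, Slc6a5, the glycine transporter, and Lbx1 had no UMI in 108 cells. The cells with neither glutamate nor GABA marker held Neurod4 in 11 of 21 and Foxp2 in 7.

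Neurog1, a proneural factor, was found in both classes. It was expressed in 34 cells, of which 24 were neuron-range, and in 19, 7, 1 and 7 cells of the 4 embryos. Of 21 proneural and early neuronal genes, 20 were tested over all cells and none passed, with a median difference of -0.18 beside -0.12 over all genes. In progenitor-range cells 16 were tested, 15 of which were lower at E11.5, with a median of -0.99 beside -0.16 over all genes, and again none passed (smallest adjusted p = 0.19). Dll1, a Notch ligand, had means of 2.95, 1.07, 0.02 and 1.68 there, so that the stages overlapped.

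Over all cells, 19 of 12150 genes (0.156%) differed between E11.5 and E10.5, 16 lower (0.132%) and 3 higher (0.0247%), at a limma adjusted p under 0.05 and a log2 difference of at least 1. The values at E11.5 were on the whole lower, as the median over all genes was -0.12, and the embryo means did not overlap for 34.7% of genes in the lower direction against 9.33% in the higher. The genes that fell are described below by what each is known to do, an order made after the calls were seen.

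Of the progenitor genes, Hes1, a Notch target that represses proneural genes, had means of 2.66 and 2.46 at E10.5 and of 0.96 and 0.39 at E11.5. It was found in 27 of 30 and 17 of 27 cells, and later in 5 of 26 and 3 of 25. It fell by 1.89 ± 0.33 on the log2 scale (SE; limma adjusted p = 0.0344). Id1 was at 3.23 and 2.91 and then at 1.15 and 1.07, and fell by 1.96 ± 0.36 (adjusted p = 0.0405). Id2 was at 5.18 and 4.69 and then at 3.01 and 3.48, and Id3 at 5.12 and 4.57 and then at 2.60 and 3.12. They fell by 1.69 ± 0.28 and 1.98 ± 0.30 (adjusted p = 0.0344 and 0.0245). For these 4 genes the lower E10.5 embryo stood above the higher E11.5 embryo. Other progenitor genes did not follow them. Sox2 (2.31, 1.69, 1.0 and 1.99), Sox9 (1.54, 0.83, 0.78 and 2.29) and Fabp7 (6.62, 5.69, 5.19 and 6.64) overlapped between the stages. Of the 10 progenitor genes used for the score, 2 fell and none rose (median -0.57), and of 11 tested genes of the Notch and Id list 2 fell and none rose (median -0.37). Hes5, the other main Notch target, was at 4.31, 2.66, 1.55 and 3.10 and did not pass the test (-1.16 ± 0.50, adjusted p = 0.36). None of the 10 neuron genes of the score passed, with a median of 0.64.

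**Figure D4:**
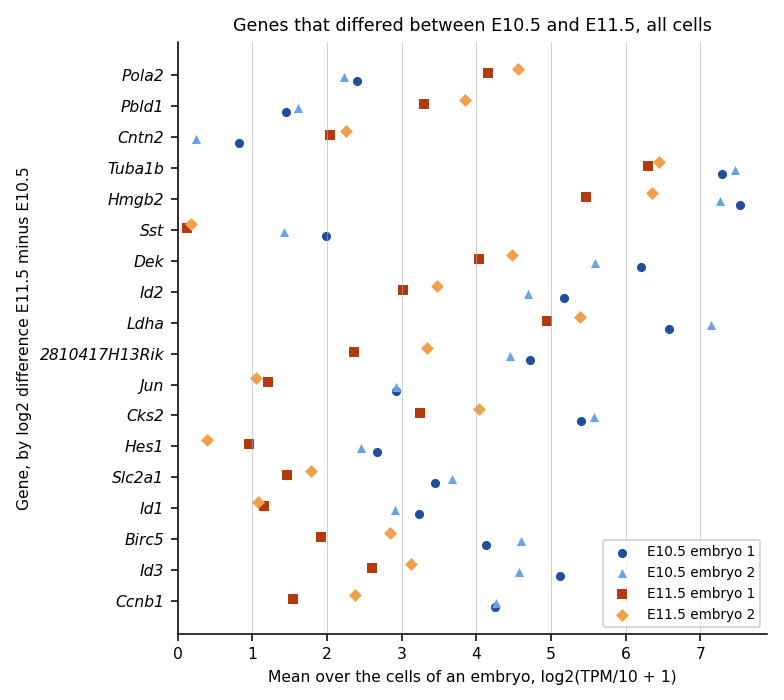
Mean level of genes that differed between E10.5 and E11.5 over all cells, with 1 point per embryo (blue, E10.5; red and orange, E11.5) on log2(TPM/10 + 1). In each gene shown both E10.5 embryos lie on one side of both E11.5 embryos. Ccnb1 fell from 4.25 and 4.27 to 1.54 and 2.38, and Cntn2 rose from 0.83 and 0.24 to 2.04 and 2.26.

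Several genes known from dividing cells fell, while Pola2, a replication gene, rose. Of the study's 43 G1/S genes none passed, with 43 lower at E11.5 and a median of -0.75, and of its 54 G2/M genes 3 passed, all lower, with 51 lower and a median of -0.97, beside -0.12 over all genes. The embryo means of 37 and 48 of them did not overlap in the lower direction, where 34.7% of all genes did so. Ccnb1, the mitotic cyclin, was at 4.25 and 4.27 and then at 1.54 and 2.38. It fell by 2.30 ± 0.39 (adjusted p = 0.0344). Birc5 and Cks2, which act in mitosis, Hmgb2, Dek, Tuba1b and 2810417H13Rik, a PCNA-associated factor, fell by between 1.01 and 1.98. Both E10.5 embryos exceeded both E11.5 embryos in each of them. The share of cycling cells, those with a G1/S or G2/M score of at least 2, was 93.3% and 66.7% at E10.5 and 30.8% and 56.0% at E11.5. The stages did not overlap, with a difference of -36.6 points (exact permutation p = 0.333, the smallest possible). With thinned cells it was -32.2 points, and with an embryo left out -23.3 to -49.9 points. The progenitor-range cells were nearly all cycling in every embryo (100%, 94.1%, 100% and 100%). In the neuron-range cells the shares were 90.0%, 20%, 0% and 15.4%, and E10.5 embryo 1, whose neuron-range cells also carried progenitor genes, gave 18 of the 20 cycling cells of E10.5. Of these 18, 10 stood within 0.5 of the threshold by the higher of their 2 scores, whose median was 2.40 in the neuron-range cells against 4.26 in the progenitor-range cells of the same embryo. With a score of at least 1.5 the shares were 100%, 40%, 11.1% and 46.2%, so that the stages overlapped, and the difference was -41.4 points (exact permutation p = 0.667). Without E10.5 embryo 1 the difference at the threshold of 2 was -23.3 points over all cells and -12.3 points in neuron-range cells, against -47.3 points with it.

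Metabolic, stress and peptide genes completed the list. Ldha, which makes lactate, was at 6.58 and 7.15 and then at 4.95 and 5.39, and fell by 1.69 ± 0.23 (adjusted p = 0.0219). Slc2a1, the glucose transporter GLUT1, fell by 1.94 ± 0.35 (adjusted p = 0.0364). Jun, an immediate early gene that also rises on cell dissociation, was at 2.93 and 2.93 and then at 1.20 and 1.05, and fell by 1.80 ± 0.30 (adjusted p = 0.0344). Of 6 tested dissociation genes, Jun alone passed and all 6 were lower at E11.5 (median -0.68), Fos being found in 8 and 11 cells at E10.5 and in 0 and 0 at E11.5. Their part in the other stage differences was not tested.

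The 3 genes that rose were Cntn2, Pola2 and Pbld1. Cntn2, the axonal adhesion molecule TAG-1, was found in 8 and 1 cells at E10.5 and in 13 and 13 at E11.5. It rose by 1.62 ± 0.29 (adjusted p = 0.0351), the only one of 26 axon guidance genes to pass. Pola2, a subunit of DNA polymerase alpha, was at 2.40 and 2.22 and then at 4.16 and 4.56. It was also expressed in 7 of the 7 hematopoietic cells, at a mean of 4.04, and in the forebrain it was at 4.49, 3.86, 4.83 and 5.35.

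The other groups had no gene past the test over all cells. These were the 19 tested synapse genes (median 0.09), the 16 neuron maturation genes (0.26), the 32 neuron-type factors (0.01), the 10 dorsal and 5 intermediate progenitor genes (0.22 and -0.33), the 9 genes of the Hedgehog response (-0.05) and the 6 retinoid genes (-0.25). Of 6 ventral progenitor genes, 6 were lower at E11.5 and none passed, and most of their cells were of E10.5 embryo 2.

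These stage calls were few and moved with the settings. Without E10.5 embryo 1 or without E10.5 embryo 2, the embryo that went against its label, 2 genes passed in each case, without E11.5 embryo 1 none did and without E11.5 embryo 2 there were 16, while all 19 kept their sign in each of these fits. On summed UMIs with edgeR none passed at the adjusted threshold, while 907 had an unadjusted p under 0.05, and after thinning limma called none.

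Sst, the gene of the neuropeptide somatostatin, had the smallest adjusted p among the neuron-range cells. Its mean there was 2.64 and 2.61 at E10.5 and 0.18 and 0.35 at E11.5. It was found in 11 of 20 and 6 of 10 of these cells at E10.5, and in 1 of 18 and 1 of 13 at E11.5. The E10.5 embryos lay side by side and far above both E11.5 embryos, and at E9.5 the gene was found in 1 cell of each embryo. The stage difference was -2.36 ± 0.26 (limma adjusted p = 0.000361). It passed with each embryo left out and after thinning, whereas edgeR gave an adjusted p of 0.23. Of the 19 neuron-range cells with Sst, 8 had a glutamate marker only, 2 a GABA marker only, 2 both and 7 neither. The 250 bases before its RefSeq start are shown because this gene had the smallest adjusted p among neurons. They lie at chr16:23890845-23891094 on the minus strand of GRCm38.p6, and a GENCODE model of Sst begins inside this window. The capitals mark the palindromic cAMP response element TGACGTCA, found at -48 on either strand alike, for which the Sst promoter is a textbook example. Of 32851 mouse promoter windows of this length, 1.55% held it.
Sst: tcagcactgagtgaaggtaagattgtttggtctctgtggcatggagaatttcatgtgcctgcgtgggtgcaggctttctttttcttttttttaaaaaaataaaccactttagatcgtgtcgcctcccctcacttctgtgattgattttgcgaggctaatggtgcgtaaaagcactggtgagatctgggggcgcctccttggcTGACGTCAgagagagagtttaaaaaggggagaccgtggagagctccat

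Within neuron-range cells, 11 of 11213 genes (0.0981%) differed between the stages, 4 higher (0.0357%) and 7 lower (0.0624%). Cntn2 (chr1:132509427-132543256, minus strand, GRCm38) was at 0.92 and 0.40 and then at 2.69 and 3.71 in these cells. It rose by 2.54 ± 0.37 (adjusted p = 0.00589). Mab21l1, a gene of eye and neural development, was at 1.74 and 0.11 and then at 3.48 and 3.89, and rose by 2.76 ± 0.47 (adjusted p = 0.0224). Barhl1 (chr2:28907679-28916668, minus strand), the Bar homeobox factor of Atoh1-derived neurons, was found in 0 of 20 and 1 of 10 neurons at E10.5 and in 5 of 18 and 5 of 13 at E11.5. Its means of 0.04, 0.15, 1.16 and 1.33 did not overlap, as for 9.93% of genes in this direction, and it rose by 1.15 ± 0.22 (adjusted p = 0.0471). It was the only one of 30 tested neuron-type factors that passed. Lhx9 (0.49, 1.09, 1.41 and 3.19) and Lhx2 (0.66, 1.0, 1.43 and 4.25), which stood in the same cells, did not pass (adjusted p = 0.26 and 0.19), and their highest value was that of E11.5 embryo 2 in each case. Dek, Ldha, Ctsl, Hsp90b1, Mif and Tuba1b fell by 1.22 to 2.35. With an embryo left out, 5 (without E10.5 embryo 2 or E11.5 embryo 2), 6 (without E10.5 embryo 1) or 26 genes (without E11.5 embryo 1) passed.

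Within progenitor-range cells, 4 of 10493 genes (0.0381%) differed, 2 in each direction (0.0191%). Wnt5a (chr14:28504750-28527448, plus strand), a non-canonical Wnt ligand, was at 2.79 and 3.04 and then at 0.38 and 0.53. It was expressed in 8 of 10 and 14 of 17 cells and later in 1 of 8 and 2 of 12, and fell by 2.46 ± 0.38 (adjusted p = 0.00929). Cmtm8, a membrane protein gene, fell by 1.57 ± 0.24 (adjusted p = 0.00929), from 6 and 9 expressing cells to 0 and 1. Pola2 and Pbld1 rose, as over all cells. Leaving out E10.5 embryo 1, E10.5 embryo 2 or E11.5 embryo 1 left no call, and leaving out E11.5 embryo 2 left 1. For none of 12130 genes did the stage change differ between neuron-range and progenitor-range cells (limma; 585, or 4.82%, had an unadjusted p under 0.05, and edgeR called none), so the calls above are not shown to be particular to either class.

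Of the 7 late timing factors 4 were tested in progenitor-range cells, 3 were higher at E11.5 and 1 lower, and none passed. Tcf4 was lower (-0.78, adjusted p = 0.60), and Zbtb20 (0.31) overlapped between the stages. Nfia, which opens the gliogenic phase, was at 0.12 and 0.61 and then at 1.66 and 1.25 (1.09 ± 0.22, limma adjusted p = 0.076), and Nfib was at 0.49 and 0.67 and then at 1.16 and 1.70 (0.85 ± 0.24, adjusted p = 0.19). Of the glial list, 5 of 12 genes could be tested and 5 of 5 were higher at E11.5 without overlap, where 9.38% of all genes did so. Ednrb, the endothelin receptor of radial glia, was at 1.37, 1.96, 2.69 and 3.60, Ttyh1 at 1.28, 0.54, 2.13 and 2.13 and the glutamate transporter gene Slc1a3 at 0.00, 0.31, 1.15 and 0.76. None of the 5 passed (smallest adjusted p = 0.13), and Gfap had no UMI. Over all cells, 8 of 8 tested early timing genes were lower at E11.5 (median -0.49) and none passed. There 34.7% of all genes were lower at E11.5 without overlap of the embryo means. Of the early timing genes, Lin28a was found in 6 and 5 cells at E10.5 and in 1 and 1 at E11.5, and Nr6a1 in 7 and 5 and then in 1 and 0. Within progenitor-range cells Igf2bp2 (-1.36, limma adjusted p = 0.29), Igf2bp3 (-0.55), Nr6a1 (-0.51), Lin28b (-0.42) and Trim71 (-0.26) were lower without passing the test. Igf2bp1 (-0.09) and Hmga2 (-0.002) barely moved in these cells. The stages overlapped there for Igf2bp3, Lin28b, Igf2bp1 and Hmga2. The early temporal factors Onecut1, Onecut2 and Onecut3 were found in 37, 50 and 13 of the 61 neuron-range cells and none passed (smallest adjusted p = 0.32 over all cells). The isthmic list had 10 of 11 tested genes lower at E11.5 (median -0.29), none past the test. Spry1, a feedback inhibitor of FGF signalling, came nearest at 2.29, 2.70, 0.63 and 1.13 (-1.62 ± 0.33, adjusted p = 0.077).

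Against the forebrain cells of the same-numbered embryos, 88 of 13152 genes (0.669%) differed, 62 higher (0.471%) and 26 lower (0.198%) in the hindbrain. Crabp1, which binds retinoic acid in the cytoplasm, led them. It was at 6.77, 5.44, 6.42 and 5.0 in the hindbrain and at 1.38, 1.44, 0.49 and 0.09 in the forebrain. The organs did not overlap, as for 4.89% of genes in this direction, with a difference of 5.06 ± 0.34 (limma adjusted p = 4.15e-06). It was the only one of 6 tested retinoid genes to pass, and it was higher in neuron-range cells (7.72, 6.93, 7.32 and 6.01) than in progenitor-range cells (4.86, 4.57, 4.38 and 3.91). The hematopoietic cells of these libraries held it in 7 of 7. The 250 bases before its start, at chr9:54764498-54764747 on the plus strand of GRCm38.p6 (RefSeq), are shown for the gene with the largest organ difference. Capitals mark the GC box GGGCGG, searched on both strands, which was present at 5 places and in 32.7% of all promoter windows of this length. The cAMP response element was not in the window.
Crabp1: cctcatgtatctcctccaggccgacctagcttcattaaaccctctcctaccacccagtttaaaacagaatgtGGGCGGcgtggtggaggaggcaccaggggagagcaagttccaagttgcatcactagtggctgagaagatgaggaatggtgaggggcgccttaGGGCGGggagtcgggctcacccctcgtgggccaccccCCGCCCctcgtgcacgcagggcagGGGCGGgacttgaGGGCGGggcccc

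Neuronal filament and regional genes followed. Nefm and Nefl, subunits of the neurofilament, were higher by 3.33 ± 0.55 and 3.03 ± 0.51 (adjusted p = 0.0105 and 0.0112). Sncg, the gamma synuclein gene, was at 4.14, 3.17, 3.39 and 1.96 in the hindbrain and listed at 0.00 in all 4 forebrain means (adjusted p = 0.000359). En1 (2.75, 1.90, 2.47 and 1.13), En2, Fgf17 and Irx2 were likewise at 0.00 in the forebrain embryos and passed the test. Of the isthmic list 4 of 11 tested genes were higher and 11 of 11 positive, with a median of 0.75 beside 0.05 over all genes. Dbx1 was at 4.55, 1.82, 1.48 and 3.30 against at most 0.13. Among the neuron-type factors, 6 of 36 tested were higher, namely Pou4f1, Isl2, Ebf1, Ebf3, Tfap2b and En1, and 2 were lower, Lhx2 and Dmrta2. Onecut1 and Onecut2 were higher by 1.28 and 2.22. Id1, Id2 and Id3 were higher in the hindbrain by 1.42, 1.71 and 2.29 although they fell there between the stages, with overlapping embryo means for Id2.

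Genes of the telencephalon were among those lower in the hindbrain. Dlx2, a factor of the ventral telencephalon, was at 0.00, 0.00, 0.13 and 0.00 against 3.31, 2.40, 1.53 and 4.28 (-2.85 ± 0.45, adjusted p = 0.00661). Dlx1, Dlx5 and Emx2, factors of the ventral telencephalon and the cortex, were at 0.00 in the 4 hindbrain embryos. Of 13 forebrain and midbrain genes 6 were lower and none higher. None of the 4 GABA genes passed, Gad2 being at 0.80, 0.06, 0.46 and 0.77 against 0.93, 2.01, 1.11 and 3.73 (adjusted p = 0.19). Dlx1 and Dlx5, which mark the GABAergic lineage of the telencephalon, had no UMI in any hindbrain member, the 14 GABA-marked neurons included.

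**Figure D5:**
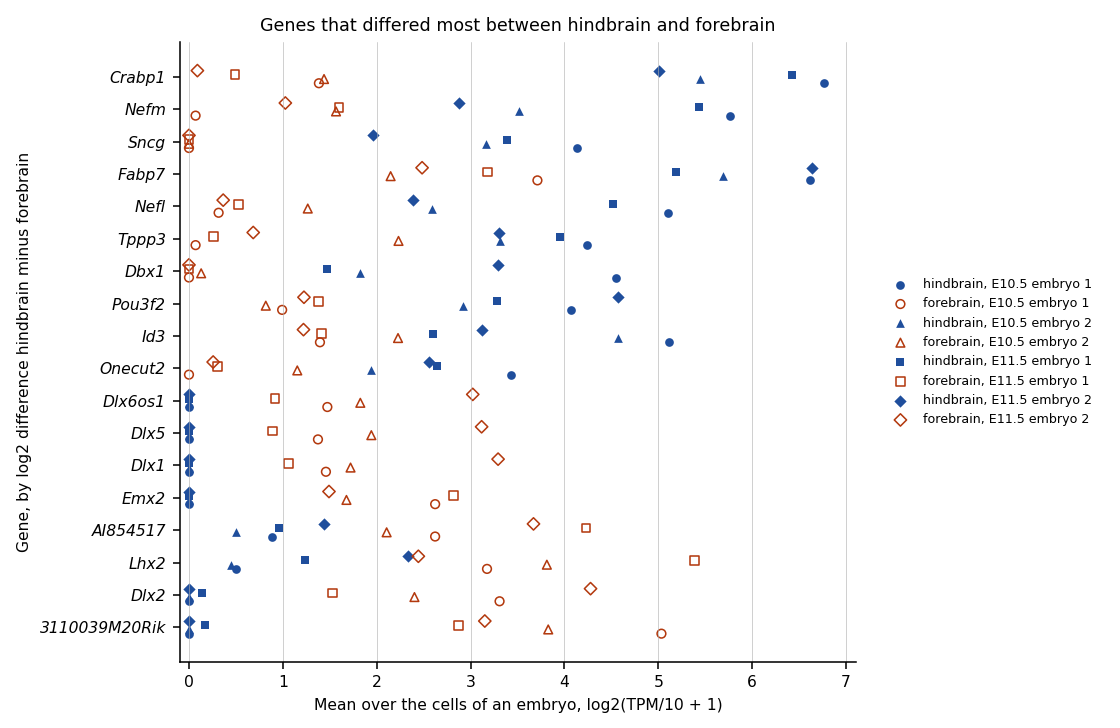
Mean level of genes most above and most below the forebrain in hindbrain neuronal cells, 1 symbol per embryo, on log2(TPM/10 + 1). Filled blue symbols are hindbrain and open red symbols forebrain. Crabp1 lies between 5.0 and 6.77 in the hindbrain and between 0.09 and 1.44 in the forebrain, and Dlx2 between 0.00 and 0.13 against 1.53 to 4.28.

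The forebrain of E10.5 embryo 1 gave only 9 cells, and the count of calls moved with single embryos. Without E10.5 embryo 1 only 1 gene passed, without E11.5 embryo 1 4 genes, without E11.5 embryo 2 3 genes and without E10.5 embryo 2 47 genes. With both classes weighted equally 23 passed. For no gene did the stage change differ between hindbrain and forebrain (limma, 0 of 13152, with 620, or 4.71%, at an unadjusted p under 0.05, and edgeR called none), and with the embryo as a block over both organs 3 genes passed.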

How the data were processed

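The deposited values are UMIs per 1000000 UMIs of the cell (CPM), called TPM by the authors, which they made after CASAVA 1.8, TopHat2 2.0.12 against mm10 and HTSeq (version not given in the sources used here). Multiplied by the cell's total UMIs, 100% of the values above 0 were whole numbers within 0.05 UMIs in 631 cells read, over 23154 genes. Members, neighbouring groups and totals came from the cell sheet that accompanies the study. Members, gene lists and markers were chosen with earlier results of these data known. Levels were averaged per embryo, E9.5 embryos included in the stage fits, and tested with limma 3.58.1 (R 4.3.3) on genes expressed in at least 3 cells. Genes were called at a Benjamini-Hochberg adjusted p under 0.05 over all genes tested and a log2 difference of at least 1. The number of embryos, 2 per stage, limits the precision, and Wilson intervals (95%) and limits for 0 (3 counts) cover counting error only. Shares were compared by exact two-sided permutation. edgeR 4.0.16 on summed UMIs, thinning, filters and left-out embryos served as alternatives. Scripts were tested on simulated data. Named genes are members of the fixed lists and up to 10 non-overlapping calls per direction with the largest differences. Other names were chosen after their values were seen. The cell names give forebrain and hindbrain sets the same embryo numbers, which were used as pairs in an alternative. At E10.5 the sex of embryo 2, which went against its label in both organs, bears on this pairing, whereas at E11.5 both embryos were alike in sex and the pairing was not tested. Gene positions are from GENCODE M21 and promoters from the RefSeq table. Some genes are not reported here and are left out of the figures, while counts over lists and over all genes include them.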

Additional observations from a re-analysis of the deposited data

How the results depend on the processing

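Counts of calls moved with the settings. On log2(TPM + 1) they rose to 124 over all cells, 34 in neuron-range cells and 239 between organs. With no filter on low values they were 0, 0 (progenitor-range), 1 (neuron-range) and 9 (organs). Thinning to 50000 UMIs left 0 over all cells and 4 in neuron-range cells. edgeR gave 0 over all cells (907 at an unadjusted p under 0.05), 1 in progenitor-range cells, 20 in neuron-range cells and 137 between organs. Equal weights for the classes gave 4 (stages) and 23 (organs), the E10.5 and E11.5 embryos fitted without E9.5 gave 29, and leaving out cells within 0.5 of the cut gave 7 in neuron-range cells. With 1 embryo left out, counts ran from 0 to 16 over all cells, from 0 to 1 in progenitor-range cells, from 5 to 26 in neuron-range cells and from 1 to 47 between organs. The causes were not tested.

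Stage differences in shares with 1 embryo left out ran from -6.05 to 23.6 points for neuron-range cells, from -6.37 to 23.6 for glutamate, from -3.89 to 31.2 for GABA and from -49.9 to -23.3 for cycling cells. The first 3 turned without E10.5 embryo 2 (-6.05, -6.37 and -1.37) and GABA also without E11.5 embryo 2. Thinning turned the difference in cycling progenitor-range cells from 2.94 to -1.23 points. With the embryo number as a replicate block, 3 genes passed for the difference of the stage change between organs, against 0 without it. The block changed no other count by over 1.5 times, with 4 and 11 stage calls in the progenitor- and neuron-range cells and 107 between organs. For 50 single results, 601 alternative values were computed, of which 334 stayed the same, 266 were weaker and 1 turned. The same means that the direction was kept, with the call for a gene. Weaker means a gene that kept its direction but lost the call, or a share whose difference became 0. The latter held for cycling progenitor-range cells at a score of at least 1.5, where every embryo stood at 100%. The 601 values leave out the shares of neuron-range, glutamate-marked and GABA-marked cells and of cycling cells over both classes, whose turns are given above. The 2 cell pairs with identical values were both kept in an alternative chosen after seeing the data, which changed no count by over 1.5 times. With 2 embryos per stage, 1 library each, differences between embryos, libraries and stages cannot be told apart.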

Other observations

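Foxb1, a forkhead factor of the early neural tube, was chosen after its values were seen. It was at 2.06 and 2.15 at E10.5 and at 0.01 and 0.57 at E11.5 over all cells. In progenitor-range cells it was expressed in 9 of 10 and 15 of 17 cells at E10.5 and in 0 of 8 and 3 of 12 at E11.5. The embryos did not overlap, and the stage difference over all cells did not pass the test (-1.81, limma adjusted p = 0.082). Against the forebrain it was higher by 1.20 (adjusted p = 0.0052).

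The crossing gene Robo3, which lets commissural axons reach the midline, was at 2.11, 0.25, 2.97 and 3.29 in the neuron-range cells of the 4 embryos. Its means did not overlap between the stages, as for 9.93% of all genes in this direction. Unlike Cntn2, Robo3 did not pass the test (1.95, limma adjusted p = 0.13). Uncx, a homeobox factor found in 8 of 8 neurons with a GABA marker only, was expressed in 9, 0, 12 and 9 neuron-range cells (2.04, adjusted p = 0.21).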
